A study of Mus musculus with 19 samples.

Results

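The growth hormone axis of the liver was followed through 10 genes, namely the receptor gene Ghr, the kinase gene Jak2, the transcription factor genes Stat5a and Stat5b, the feedback inhibitor genes Cish, Socs2 and Socs3, the repressor gene Bcl6, and the genes of the secreted products, Igf1 and Igfals. They were chosen by symbol, with results of the same comparison already known, and all 10 were found among the 24054 rows of the RNA-seq table. Because the choice used this comparison, the values of these 10 genes are given as a description and not as a test. The study asked which liver transcripts change when the RNA-binding protein RALY, a heterogeneous nuclear ribonucleoprotein, is removed from hepatocytes.

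Liver RNA came from Raly flox/flox mice on a C57BL/6 background that were fed chow. L-RalyKO mice (n = 3) had received AAV8.TBG.Cre and control mice (n = 3) AAV8.TBG.GFP, 4 weeks before collection. Both groups therefore carried the floxed alleles and an adeno-associated virus, although the labels describe the controls as wild type. The TBG promoter directs Cre to hepatocytes, so the other cells of the liver keep an intact Raly gene, and whole liver was sequenced. The methods give male mice as the rule and their age is not given in the sources used here. The labels name separate samples and not the animals behind them, so that p values measure the spread between these samples.

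The libraries held between 28302983 and 38052705 reads, and values are scaled CPM (reads per gene relative to the effective library size), with 3 reads worth between 0.0789 and 0.105. The targeted gene was checked first. Raly was at 50.1, 48.6 and 46.8 in control 1, 2 and 3 and at 6.34, 6.61 and 7.39 in L-RalyKO 1, 2 and 3, so the groups lay far apart (log2 fold change -2.67, SE 0.0689, limma adjusted p = 6.92e-07). The Y-linked gene Ddx3y was between 75.2 and 90.9 and Xist, which is expressed from the inactive X chromosome of females, at 0.378 or lower in all 6 libraries. The first principal component (50.8% of the variance) separated the groups, while on the second control 3 stood apart at -14.5, with the other libraries between -1.94 and 10.5.

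Growth hormone binds its receptor on the hepatocyte, and the receptor activates the kinase JAK2, which phosphorylates STAT5A and STAT5B. The STAT5 proteins enter the nucleus, bind palindromic sites in DNA and raise transcription of Igf1, of Igfals and of the inhibitors Cish and Socs2, which in turn damp the receptor, while Bcl6 encodes a repressor that can occupy some of the same sites. In rodents the pituitary releases growth hormone in pulses in males and more continuously in females, and this difference sets much of the sex bias of liver gene expression.

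The palindrome TTCNNNGAA, to which STAT proteins bind, was looked for around the transcription starts of the axis genes. RefSeq windows (build GRCm38.p6) run from 250 bases before to 50 bases after each start, and 9 of the 10 genes had 15 such windows, each of which matched the genome build of the study, NCBIM37, at 1 place. Socs2 had no window. The motif reads the same on both strands, so each match counts once. It occurred in 6 of the 15 windows, belonging to Cish, Socs3, Bcl6 and Igfals, against 8.30% of all 32851 windows. Counted by gene it was 4 of 9, against 9.55% of all genes with a window. No enrichment is read from this, because the genes were chosen as members of a STAT5 pathway. No match was found in the windows of Ghr, Jak2, Stat5a, Stat5b and Igf1. The matches are printed because 3 of these 4 genes, Cish, Socs3 and Bcl6, had the largest differences between the groups. Sequences are given 5′ to 3′ on the strand of the gene, and capitals mark the matches.
Cish, bases +1 and +12, chr9:107198980-107199009 (+ strand): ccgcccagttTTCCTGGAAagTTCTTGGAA
Socs3, base -154, chr11:117830815-117830844 (- strand): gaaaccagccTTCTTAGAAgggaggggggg
Bcl6 start 1, base -118, chr16:23989037-23989066 (- strand): agcaaattagTTCTCAGAAttccagaggcc
Bcl6 start 2, bases -168, -122 and -88, chr16:23981439-23981547 (- strand): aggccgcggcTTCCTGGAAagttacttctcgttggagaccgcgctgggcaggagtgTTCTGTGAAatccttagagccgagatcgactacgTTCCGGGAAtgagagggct
Igfals start 1, base -236, chr17:25014543-25014572 (+ strand): gatctataatTTCTCAGAAaagaggctgag
Igfals start 2, base -58, chr17:25015108-25015137 (+ strand): ctgccaggtgTTCCTAGAAgaggccctggg

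Positions are counted from the RefSeq start of each window, whose first base is +1. The pair at Cish lies within an annotated exon of the gene (GENCODE vM1), the match of Socs3, the trio of Bcl6 start 2 and the match of Igfals start 2 lie inside their genes but outside annotated exons, and the other matches lie upstream. Bcl6 start 2 lies 7569 bases downstream of the start of the transcript Bcl6-001. At least 2 matches were found in 0.457% of all windows and at least 3 in 0.033%. A match describes the letters of the window, and no binding was measured here at these places.

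**Figure D1:**
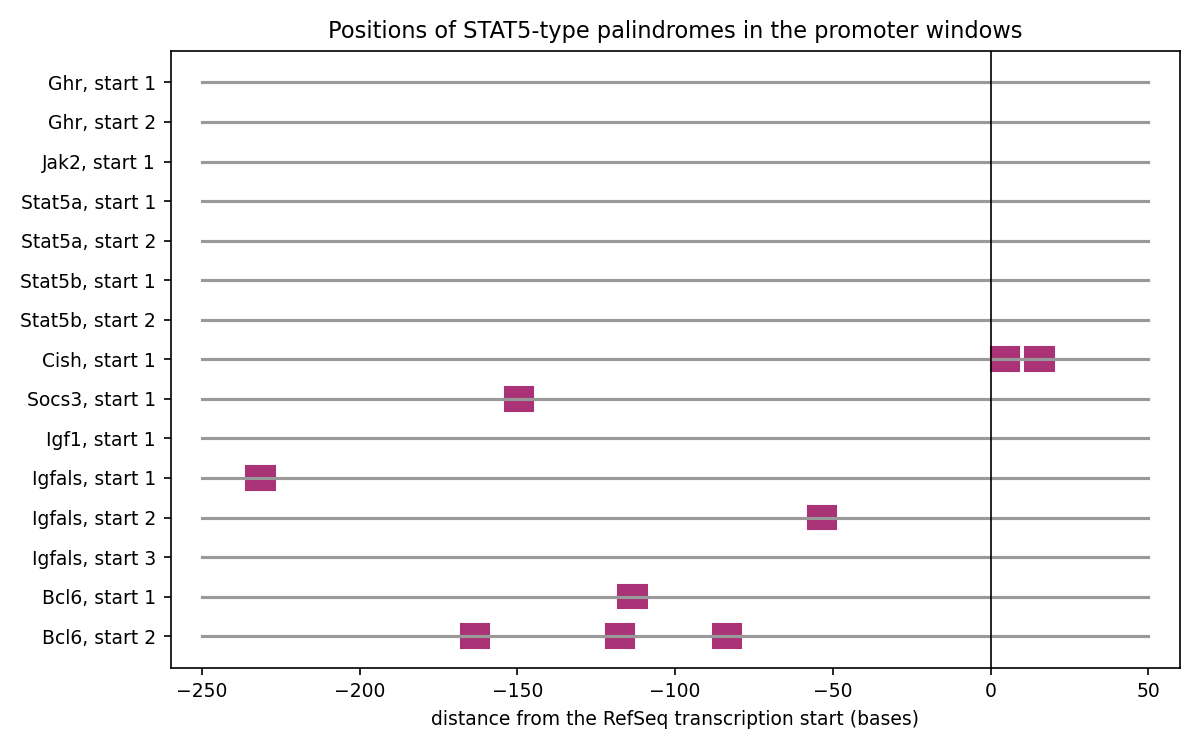
Each grey line is 1 RefSeq promoter window of an axis gene, drawn as distance in bases from the transcription start, and each purple box is 1 match to the palindrome. Cish has 2 matches just after the start, Bcl6 start 2 has 3 upstream of it, and the windows of Ghr, Jak2, Stat5a, Stat5b and Igf1 have none.

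The levels of the receptor gene overlapped between the groups, while Jak2 was slightly higher and both STAT5 genes were lower in every L-RalyKO mouse than in any control. Ghr (chr15:3267760-3533492, - strand), which encodes the growth hormone receptor, was at 649, 639 and 627 in control 1, 2 and 3 and at 676, 628 and 670 in L-RalyKO 1, 2 and 3. The groups overlapped, with means of 639 ± 11.3 and 658 ± 26.1 (SD, n = 3 each). The log2 fold change was 0.04 with a 95% interval from -0.07 to 0.16.

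Jak2 (chr19:29326318-29387570, + strand), the kinase bound to the receptor, was at 17.7, 15.8 and 18.0 in the controls and 18.5, 20.4 and 19.1 in L-RalyKO. Every L-RalyKO mouse lay above every control, but the nearest values, 18.0 and 18.5, were close together. The means were 17.2 ± 1.18 and 19.3 ± 0.963, a log2 difference of 0.16 (SE 0.0706), and it was 0.20 without control 3.

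Stat5b (chr11:100642045-100712038, - strand) and Stat5a (chr11:100720665-100746483, + strand) lie 8626 bases apart. Stat5b, the more abundant STAT5 gene of the liver, was at 57.5, 63.3 and 69.3 in the controls and 48.4, 53.1 and 46.4 in L-RalyKO. All L-RalyKO mice were below all controls, and the mean went from 63.3 ± 5.90 to 49.3 ± 3.46 (log2 fold change -0.35, 95% interval -0.53 to -0.18, and -0.29 without control 3). Control 3 was the highest of the 6 mice here, farthest from L-RalyKO.

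Stat5a was at 15.3, 13.9 and 11.5 in the controls and 10.0, 10.4 and 10.4 in L-RalyKO. The groups again did not overlap, but here control 3 was the control closest to L-RalyKO. The means were 13.6 ± 1.91 and 10.3 ± 0.230 (log2 fold change -0.36, 95% interval -0.58 to -0.14, and -0.46 without control 3). Summed over both genes, STAT5 transcripts were at 72.8, 77.2 and 80.8 in the controls and 58.4, 63.6 and 56.8 in L-RalyKO.

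Some reads of this pair could be assigned to either gene. Their coding transcripts share 608 stretches of 50 bases, which is 14.7% of those of Stat5a and 11.1% of those of Stat5b, and how such reads were counted is not given in the sources used here. Stat5a also overlaps Stat3 on the opposite strand. The library kit keeps strand, but the strand setting of the counting is not stated. No other pair of axis genes shared a stretch of this length.

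The 3 feedback inhibitor genes had the largest differences toward higher levels in L-RalyKO. Cish (chr9:107198357-107205115, + strand), whose protein binds the activated receptor and blocks STAT5 docking, was at 4.86, 3.93 and 11.7 in control 1, 2 and 3 and at 34.4, 41.7 and 21.7 in L-RalyKO 1, 2 and 3. Every L-RalyKO mouse was above every control, with control 3 the highest control and L-RalyKO 3 the lowest of its group. The means were 6.82 ± 4.23 and 32.6 ± 10.2, a ratio of 4.78, and the log2 fold change was 2.18 (SE 0.35, 95% interval 1.40 to 2.97).

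Without control 3 the log2 fold change of Cish was 2.60. Behind these values stood between 112 and 432 reads in the controls and between 823 and 1439 in L-RalyKO. Cish overlaps the antisense genes Gm17040 and Gm17041, neither of which has a row in the table.

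Socs3 (chr11:117827393-117831361, - strand) encodes an inhibitor that interleukin 6 induces through STAT3, and that growth hormone can also raise. It was at 2.15, 2.59 and 3.54 in the controls and 13.6, 12.3 and 5.18 in L-RalyKO. The groups did not overlap, although L-RalyKO 3, at 5.18, lay nearer to the controls than to the other L-RalyKO mice. The means were 2.76 ± 0.712 and 10.3 ± 4.52, a ratio of 3.75 (log2 fold change 1.51, 95% interval 0.84 to 2.19, and 1.66 without control 3). The fewest reads of any axis gene in a library were the 72 of Socs3 in control 1.

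Socs2 (chr10:94847996-94879814, - strand), which encodes the inhibitor that marks the receptor for degradation and limits body growth, was at 5.01, 4.31 and 16.0 in the controls and 17.1, 15.5 and 13.3 in L-RalyKO. Here control 3 lay inside the L-RalyKO range, while control 1 and 2 were well below it. The means were 8.43 ± 6.54 and 15.3 ± 1.90, and the log2 fold change of 0.996 had a 95% interval from 0.14 to 1.85. Without control 3 it was 1.52, with an interval from 1.26 to 1.79.

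Bcl6 was the gene with the largest difference in the other direction. Its product is a zinc finger repressor that opposes STAT5 at shared sites in male liver. Bcl6 (chr16:23965138-23988938, - strand) was at 59.3, 48.2 and 13.9 in the controls and 8.99, 12.6 and 10.2 in L-RalyKO. The groups did not overlap, but control 3 was only just above the highest L-RalyKO mouse and far below the other controls. The means were 40.5 ± 23.6 and 10.6 ± 1.85, a ratio of control to L-RalyKO of 3.82. The log2 fold change was -1.62 with a 95% interval from -2.62 to -0.62, and without control 3 it was -2.24 with an interval from -2.56 to -1.92.

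The genes of the secreted products had slightly higher means in L-RalyKO. Igf1 (chr10:87321010-87399792, + strand), the main endocrine growth factor made by hepatocytes, was at 417, 501 and 614 in the controls and 589, 612 and 629 in L-RalyKO. Control 3 lay within the L-RalyKO range and the other controls below it. The means were 511 ± 98.9 and 610 ± 20.02 (log2 fold change 0.27, 95% interval 0.00 to 0.55, and 0.41 without control 3).

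Igfals (chr17:25014600-25018955, + strand), which encodes the acid-labile subunit that keeps IGF1 in a circulating ternary complex, was at 79.3, 87.6 and 103 in the controls and 113, 110 and 99.9 in L-RalyKO. Control 3 again lay inside the L-RalyKO range. The means were 89.9 ± 11.8 and 108 ± 6.87 (log2 fold change 0.26, 95% interval 0.05 to 0.47, and 0.36 without control 3). The ratio of Igf1 to Igfals values within a mouse was between 5.26 and 5.98 in the controls and between 5.20 and 6.29 in L-RalyKO, so the groups overlapped.

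**Figure D2:**
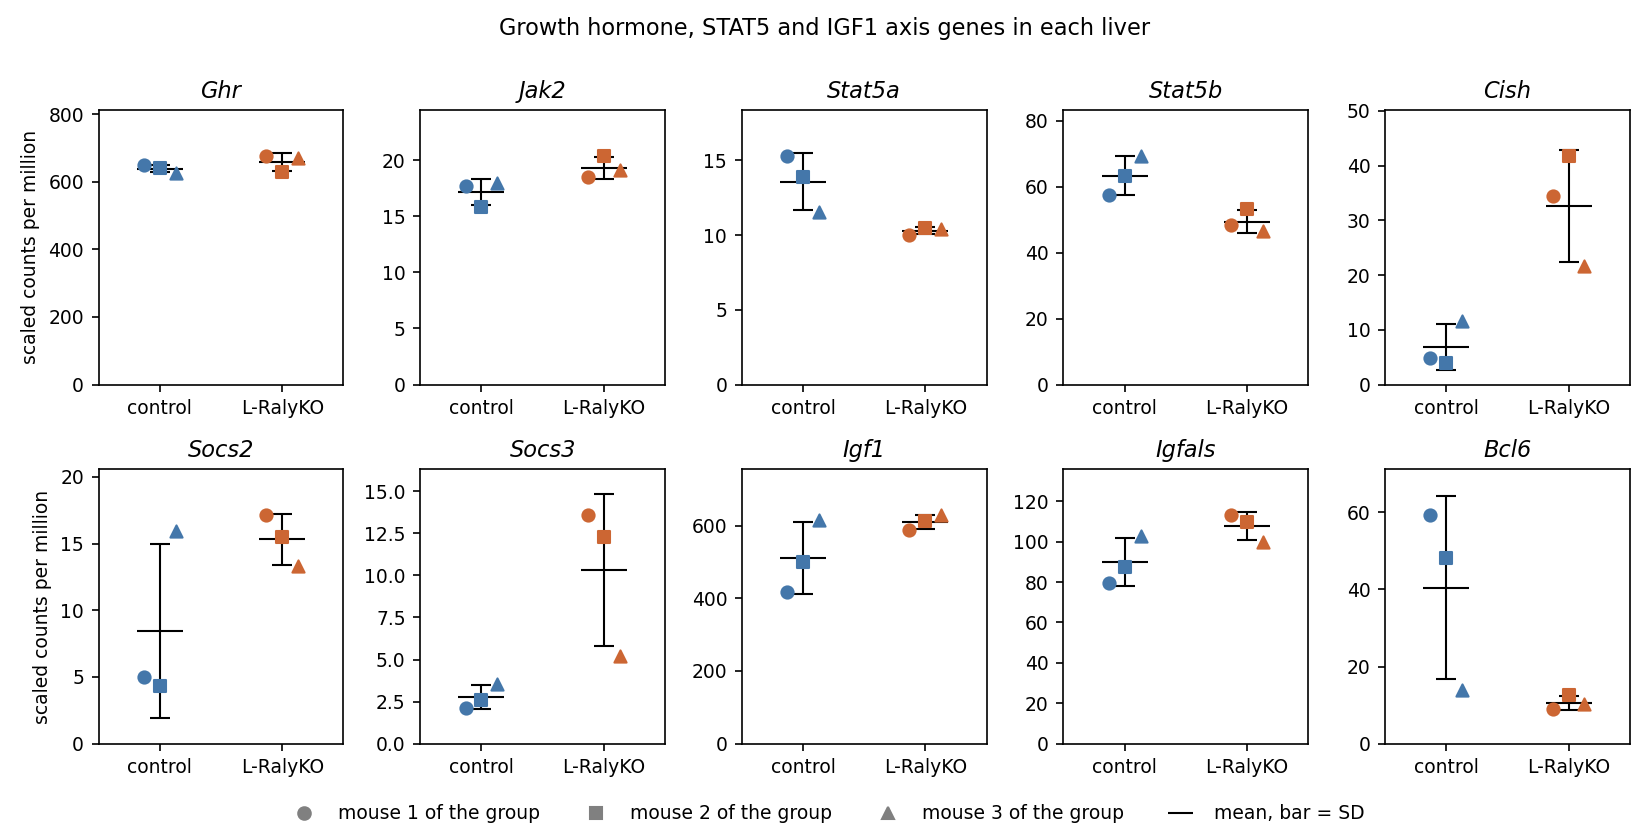
Scaled CPM of each axis gene in each liver, with controls in blue, L-RalyKO in orange, and the horizontal line and bar giving the mean and SD of 3 mice. Control 3 (blue triangle) sits inside the L-RalyKO range for Socs2, Igf1 and Igfals and just above it for Bcl6, while Cish has no control above 11.7 and no L-RalyKO mouse below 21.7.

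As a count, 3 of the 10 genes (Cish and Socs3 higher, Stat5b lower) had an adjusted p under 0.05 in the limma fit, where 6.55% of the 11580 genes tested did (3.36% higher and 3.19% lower). Nothing is read from this count because the genes were chosen with this contrast known. By edgeR it was 2 of 10 (Stat5a and Stat5b) where 6.68% of all genes were called, by DESeq2 it was 5 (Stat5a, Stat5b, Cish, Socs3 and Bcl6) where 9.25% were, and it was 1 (Cish) where 2.81% of all genes with at least 1 read were. All 10 passed the filter on low values. The values of the groups did not overlap for 6 of the 10 (Jak2, Cish and Socs3 higher, Stat5a, Stat5b and Bcl6 lower), and the share among all genes tested was 28.1% (14.4% higher and 13.7% lower). The median log2 fold change was 0.21 over the axis genes and 0.00 over all genes tested.

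Among the axis genes, the position of control 3 was the recurring feature. Of the 3 controls it was the one nearest the L-RalyKO mean for 8 of the 10 genes, all but Ghr and Stat5b, for which control 1 was nearest. Over all genes tested, control 3 was nearest for 35.7%, control 2 for 35.9% and control 1 for 28.4%. Control 3 lay within the L-RalyKO range for 3 of the 10 genes (Socs2, Igf1 and Igfals), and over all genes tested it did so for 37.8%. The controls differed among themselves by a factor of 4.25 in Bcl6, 3.70 in Socs2 and 2.97 in Cish, against 1.40, 1.28 and 1.93 in L-RalyKO. For Socs3 the wider spread was in L-RalyKO, 2.62 against 1.65.

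The ratio of Cish to Bcl6 was 0.0820 in control 1 and 0.0815 in control 2, and it was 0.837 in control 3. In L-RalyKO 1, 2 and 3 it was 3.83, 3.31 and 2.12. Control 3 thus lay between the other controls and L-RalyKO. Both the labels and the level of Raly (46.8) place control 3 among the controls, and what sets it apart was not tested.

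**Figure D3:**
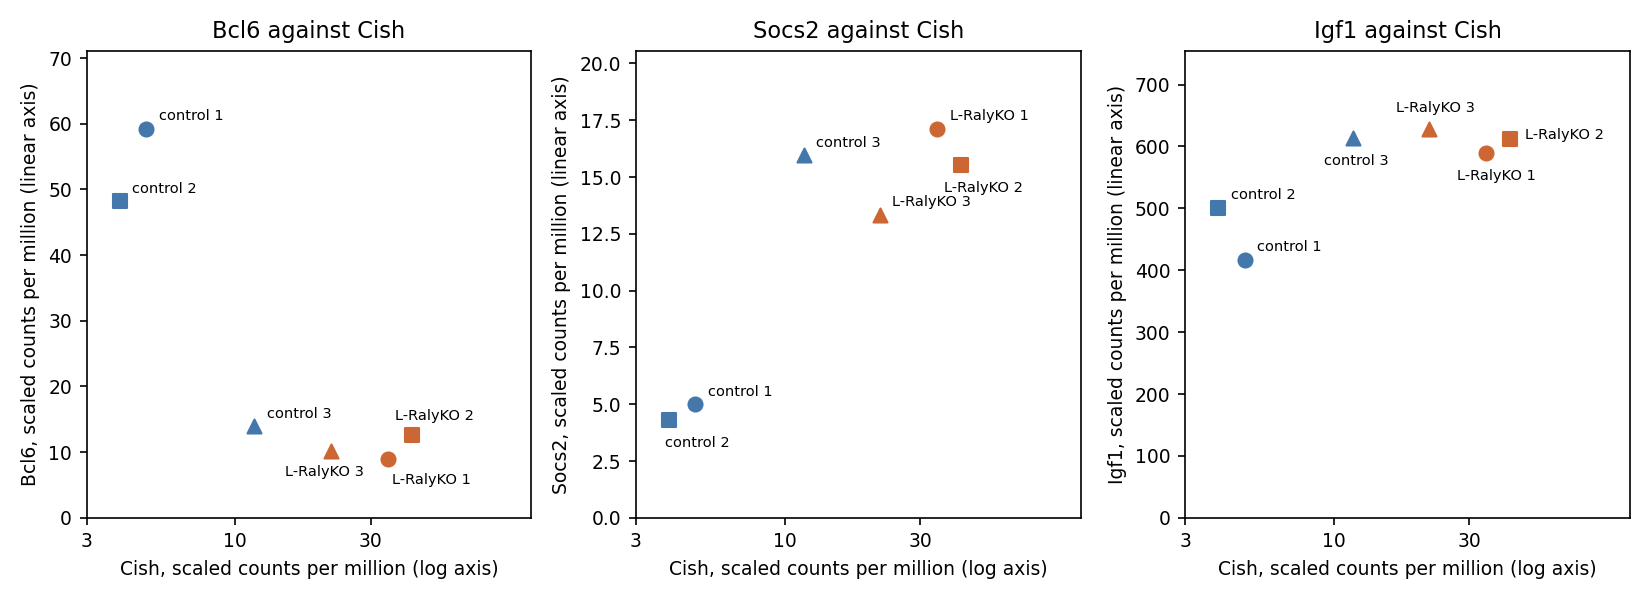
Bcl6, Socs2 and Igf1 plotted against Cish in each of the 6 livers, in scaled CPM, with Cish on a log axis and each point 1 mouse. Control 3 lies beside the L-RalyKO mice on the vertical axis of each panel and between the other controls and L-RalyKO on the Cish axis.

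Leaving out control 3 left every direction as it was. The difference became larger for 8 genes and smaller for Ghr and Stat5b. Control 3 was the control nearest the L-RalyKO mean for these same 8 genes, so this follows from its position and is no further result. The same limit holds for the count of calls without control 3, from which nothing is read. With 2 controls, 7 of the 10 genes had an adjusted p under 0.05 (Cish, Socs2, Socs3, Igf1 and Igfals higher, Stat5a and Bcl6 lower), where 7.02% of all genes did. It was 1 of 10 (Cish) without control 2 (4.66% of all genes) or without L-RalyKO 1 (2.87%).

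**Figure D4:**
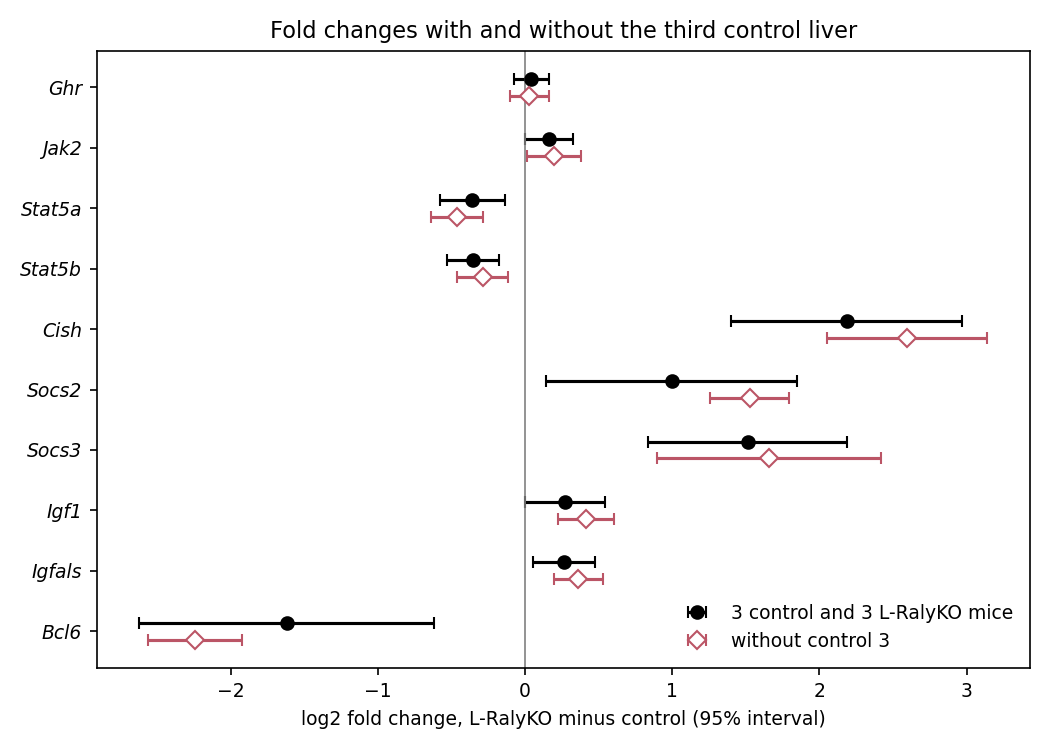
Log2 fold change of each axis gene, L-RalyKO minus control, with its 95% interval from limma, for all 6 mice (black circles) and without control 3 (open red diamonds). Without control 3 the estimate for Cish went from 2.18 to 2.60, for Socs2 from 0.996 to 1.52 and for Bcl6 from -1.62 to -2.24, and the intervals of Socs2 and Bcl6 became narrower. Control 3 was the control nearest the L-RalyKO mean for each of these genes, so larger estimates without it follow from its position.

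Levels of different genes were compared after division by the length of the gene's exons in kb. In the controls the order was Ghr (70.5 ± 1.25 scaled CPM per kb), Igf1 (51.5 ± 9.97), Igfals (31.1 ± 4.09), Stat5b (11.4 ± 1.06), Bcl6 (6.04 ± 3.53), Jak2 (3.41 ± 0.234), Stat5a (1.90 ± 0.267), Cish (1.06 ± 0.659), Socs3 (0.955 ± 0.246) and Socs2 (0.885 ± 0.686). The first 4 did not overlap with a neighbour, whereas Bcl6 overlapped Jak2 and Stat5a, and Stat5a overlapped Cish and Socs2, among which Socs3 also fell. By exon length the first 4 kept their order in L-RalyKO, Cish came next at 5.08 ± 1.58, and Bcl6 was second to last at 1.58 ± 0.276. There the ranges of Cish, Jak2 and Socs3 overlapped one another, as did those of Socs2, Bcl6 and Stat5a, into which the lowest Socs3 value also reached. With the length of the longest coding transcript in place of all exons, Stat5a stood above Jak2 and Socs2 above Socs3 in the controls, and several levels were over 1.5 times higher, with Ghr at 153, Bcl6 at 11.5, Cish at 2.39 and Socs2 at 1.99. In L-RalyKO the coding length changed the order too, with Cish (11.4 ± 3.57) above Stat5b (9.46 ± 0.663). It also put Socs3 (4.05) above Jak2 (3.84) and Bcl6 (3.01) above Stat5a (2.65).

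The genes whose profile over the 6 livers was most like that of Cish were named by the root mean square difference of standardised log2 values. They were D1Ertd622e (0.0897), Serping1 (0.0956), Foxj2 (0.0957), Zswim4 (0.0996) and Pabpc4 (0.0996). Their range was much smaller than that of Cish, with D1Ertd622e at 12.5, 12.2 and 14.6 in the controls and 17.3, 17.8 and 15.5 in L-RalyKO. Socs3 came at rank 189 and Igfals at rank 424 in this order. The profiles share the same 6 libraries, and likeness over 6 points is a description.

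Other genes of cytokine signalling were counted from a list. Of 41 receptors, kinases, STAT factors, phosphatases and adaptors, 38 were tested, 3 were higher and 1 lower at an adjusted p under 0.05 (limma, where 6.55% of all genes were called), and the median log2 fold change was 0.05. At an unadjusted p under 0.05 in limma there were 7 higher and 5 lower, where 2632 of all 11580 genes tested were under it. Il6ra, which encodes the ligand-binding receptor of interleukin 6, was at 53.5, 50.9 and 63.4 in the controls and rose to 102, 81.6 and 97.4 in L-RalyKO (log2 fold change 0.74, SE 0.102, adjusted p = 0.00566). Its groups did not overlap, and it kept its call in all 16 alternative settings, with adjusted p values from 1.15e-10 to 0.0264.

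Lifr, the receptor of leukemia inhibitory factor, was at 175, 211 and 238 in the controls and 269, 270 and 320 in L-RalyKO (0.47, adjusted p = 0.0445, and from 0.000435 to 0.117 in the alternatives). Stat3, the transcription factor activated by both receptors, was at 87.5, 89.7 and 93.1 and at 107, 104 and 102 (0.21, adjusted p = 0.0372, and from 0.0218 to 0.134). The reservation about overlapping reads of Stat3 and Stat5a holds here too. Sos1, an exchange factor of the RAS pathway, fell from 53.1, 52.4 and 55.2 to 45.8, 45.5 and 44.8 (-0.23, adjusted p = 0.0240, and from 0.0135 to 0.0791). Lifr and Stat3 each kept their call in 8 of the 16 alternatives and Sos1 in 11.

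The remaining genes of the IGF system were counted in the same way. Of 17 receptors, binding proteins and their regulators, 11 were tested with 0 at an adjusted p under 0.05 by limma, by edgeR or by DESeq2, and the median log2 fold change was 0.03. With 6.55% of all genes called, less than 1 of 11 would be called at the same share. At an unadjusted p under 0.05 in limma there were 2 (Igfbp2 and Igfbp4), where 2632 of all 11580 genes tested were under it. The largest difference among them was that of Igfbp2, a binding protein made by hepatocytes, at 185, 229 and 249 in the controls and 268, 317 and 405 in L-RalyKO (0.57, adjusted p = 0.0616). Its groups did not overlap, and it passed the threshold without L-RalyKO 1 and with a replicate block (from 0.00524 to 0.173 in the alternatives).

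Genes with a known male or female bias in mouse liver were examined next, in livers that were all male by Ddx3y and Xist. Of 23 male-biased genes, 22 were tested, 8 rose and 0 fell, with a median log2 fold change of 0.37. Of 29 female-biased genes, 14 were tested, 0 rose and 4 fell, with a median of -0.44 (of all genes tested, 3.36% rose and 3.19% fell), and the other 15 were below the filter. Among the 4 that fell, Cyp2b13 passed the filter only through the controls. The remaining 14 male-biased and 10 female-biased genes tested did not pass. Of the genes tested, 3 male-biased genes had negative fold changes and 4 female-biased genes had positive ones. By edgeR and by DESeq2 the counts were the same, where 6.68% and 9.25% of all genes were called. At an unadjusted p under 0.05 limma gave 11 male-biased genes higher and 0 lower, and 2 female-biased genes higher and 7 lower. Among these 7 were Cyp2b13 and Cyp2a4. Cyp2a4 too passed the filter only through the controls (mean 1.36, against 0.781 in L-RalyKO), so nothing is read from either. Both also enter the median of -0.44. Of all 11580 genes tested, 2632 were under this threshold. These lists were written with earlier results of these data known and give no independent support for a direction.

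Selenbp2, a selenium-binding protein, had the largest rise among the male-biased genes, from 89.7, 157 and 103 in the controls to 469, 325 and 435 in L-RalyKO (log2 fold change 1.83, SE 0.202, adjusted p = 0.00216). Gstp1, a glutathione transferase, rose from 865, 810 and 932 to 1552, 1334 and 1382 (0.71, adjusted p = 0.00196). Ugt2b1, a glucuronosyltransferase, went from 525, 533 and 552 to 884, 827 and 740 (0.60, adjusted p = 0.00254). The groups of these genes stood clear of each other, and control 3 lay with the other controls.

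The complement genes C8b (0.54, adjusted p = 0.0114) and C6 (0.49, adjusted p = 0.00587) also rose. These 5 genes kept their call in all 16 alternatives, where the highest adjusted p was 0.0420 for C8b. Cyp7b1, Mup21 and Nudt7 made up the rest of the 8. Mup20, a male major urinary protein that did not pass the test, was at 2984, 2759 and 5261 in the controls and 5083, 5274 and 5639 in L-RalyKO. Control 3 lay within the L-RalyKO range. Mup20 was picked after its values were seen and does not stand for its list. Of the 22 male-biased genes tested, control 3 lay within that range for 7 (31.8%) and control 2 for 10 (45.5%). Over all genes tested the shares were 37.8% and 38.0%.

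Cyp2b9, a cytochrome P450 that is typical of female liver, fell from 65.2, 48.9 and 36.3 in the controls to 0.873, 2.15 and 3.18 in L-RalyKO (-4.10, SE 0.290, adjusted p = 0.000406). Its close relative Cyp2b13 was low throughout, at 2.12, 1.26 and 2.97 in the controls and with 0, 1 and 2 reads in L-RalyKO 1, 2 and 3. The log2 fold change of Cyp2b13 was -1.56 on the log2(value + 1) scale, which understates a change at this level. Cyp2b13 passed the filter on low values only through the controls (mean 2.12, against 0.0272 in L-RalyKO), so nothing is read from its call. Nt5e, an ectonucleotidase, fell from 7.39, 6.10 and 8.79 to 4.80, 4.44 and 5.18 (-0.53, adjusted p = 0.0397). Abcd2, a peroxisomal transporter of fatty acids, fell from 13.6, 17.7 and 16.8 to 11.5, 9.02 and 12.2 (-0.52, adjusted p = 0.0475).

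The calls of Nt5e and Abcd2 were lost without control 3 (adjusted p = 0.0728 and 0.102, with ranges of 0.00381 to 0.115 and 0.00222 to 0.124 over all alternatives), whereas that of Cyp2b9 held. With 1 mouse left out, some female-biased genes were newly called in either direction. Higher were Fmo2 without control 3 (0.64, adjusted p = 0.0115, against 0.291 with all mice and up to 0.614 in the alternatives), Tox without control 1 and Cyp2c40 without control 2. Lower were Acot3 without control 1 and Ntrk2 without control 2. Among the male-biased genes, Elovl3 was called lower with a replicate block and Obp2a without control 2. Obp2a passed the filter on low values only through the controls. Cyp4a12b, Mup20, Mup1, Slco1a1 and Ugt2b38 were each called higher when a mouse was left out. Selenbp2, Gstp1, Ugt2b1, the Mup genes and the Cyp2b genes belong to families with closely similar sequences, and reads may have been divided among relatives.

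Among 15 transcription factors that take part in the sex-dependent program, 14 were tested, 2 rose and 1 fell, with a median log2 fold change of 0.16 (of all genes tested, 3.36% rose and 3.19% fell). Hnf4a, a nuclear receptor that maintains hepatocyte identity, rose from 520, 542 and 680 to 900, 809 and 829 (0.55, SE 0.0987, adjusted p = 0.0155). Foxa2, a pioneer factor, rose from 13.3, 13.9 and 16.7 to 33.0, 28.9 and 21.3 (0.86, adjusted p = 0.0126). The groups of neither gene overlapped, and the control nearest to L-RalyKO was control 3 for both. Foxa2 kept its call in 15 of the 16 alternatives and Hnf4a in 13.

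Onecut1 (HNF6), a factor that did not pass the test, had the pattern of Socs2. It was at 10.0, 6.10 and 25.0 in the controls and 25.5, 38.2 and 20.4 in L-RalyKO, with control 3 inside the L-RalyKO range (log2 fold change 1.15, and 1.67 without control 3). Like Mup20 it was picked after its values were seen. Of the 14 factors tested, control 3 lay within the L-RalyKO range for 5 (35.7%), and over all genes tested for 37.8%.

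Genes known to respond when STAT5 is removed from mouse liver were counted next. The list was not split by the direction of that response. Its counts and median therefore cannot show whether the changes here go with that response or against it. Of 11, 10 were tested, 1 rose and 3 fell by limma, with a median of 0.07 (of all genes tested, 3.36% rose and 3.19% fell). By edgeR 0 rose and 3 fell, by DESeq2 2 rose and 3 fell, and at an unadjusted p under 0.05 in limma 4 were higher and 3 lower. Over all genes, edgeR called 6.68% and DESeq2 9.25%, and 2632 of 11580 had an unadjusted p under 0.05 in limma. Cd36, a fatty acid transporter, fell from 153, 102 and 107 to 31.5, 43.5 and 35.8 (-1.67, SE 0.161, adjusted p = 0.00133). Pparg, a regulator of lipid storage, fell from 16.6, 11.6 and 12.2 to 7.91, 8.85 and 7.03 (-0.68, adjusted p = 0.0214). Vldlr, a lipoprotein receptor, fell from 3.79, 3.26 and 3.78 to 1.75, 2.35 and 1.58 (-0.68, adjusted p = 0.0155).

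Lpl, which encodes lipoprotein lipase, rose from 7.66, 13.5 and 15.6 to 22.1, 31.1 and 22.7 (1.02, adjusted p = 0.0356), and it kept its call in 9 of the 16 alternatives. Of 9 fat cell markers, 5 were tested, Pck1 was called higher (0.78, adjusted p = 0.00312) and Cfd and Car3 lower, where 6.55% of all genes were called. Their sum, to which Pck1 and Car3 of the hepatocyte also contribute, was between 6130 and 6757 in the controls and between 7115 and 7494 in L-RalyKO. The 5 markers that hepatocytes do not make, Adipoq, Plin1, Lep, Retn and Cfd, summed to between 2.81 and 13.1 in the controls and between 0.132 and 1.10 in L-RalyKO. Of these 5, Cfd was tested. It passed the filter on low values only through the controls (mean 6.27, against 0.479 in L-RalyKO), so nothing is read from its call. That call was kept in 9 of 15 alternatives and lost with edgeR and limma voom. The others were below the filter. The part of these markers in the results was not tested.

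Of 18 acute phase genes that act downstream of interleukin 6 and STAT3, all were tested, 2 rose and 0 fell (by edgeR also 2 and 0, by DESeq2 3 and 0, and at an unadjusted p under 0.05 in limma 4 and 0), with a median log2 fold change of 0.10. Of all genes tested, 3.36% were called higher by limma, and 6.68% by edgeR and 9.25% by DESeq2 were called in either direction. An unadjusted p under 0.05 in limma was reached by 2632 of the 11580 genes tested. Saa1, a serum amyloid, rose from 15.9, 10.4 and 12.03 to 20.6, 23.0 and 24.02 (0.79, SE 0.132, adjusted p = 0.0118). Orm1, an orosomucoid, rose from 303, 311 and 320 to 361, 376 and 373 (0.25, adjusted p = 0.0173). Saa1 kept its call in all 16 alternatives and Orm1 in 11, with adjusted p values for Orm1 from 0.000618 to 0.0604. When a mouse was left out, the call of Orm1 held only without control 3. Both belong to families of similar genes.

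**Figure D5:**
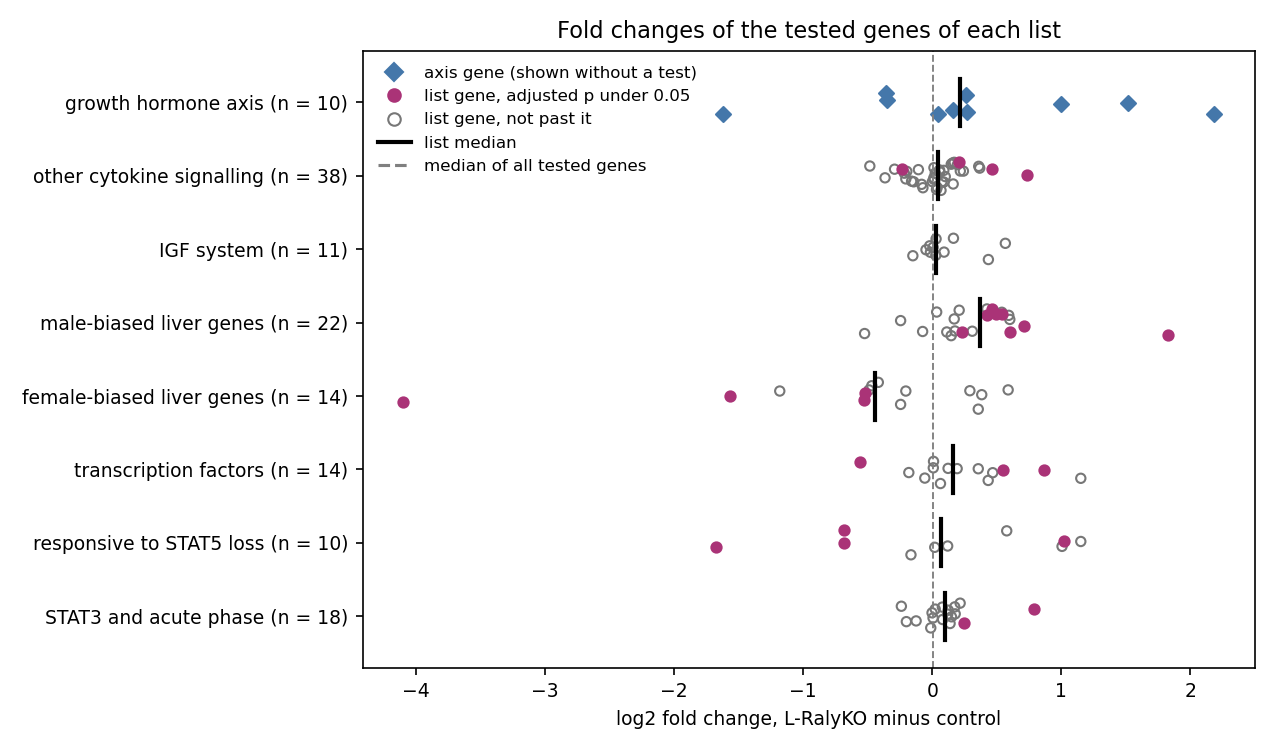
Log2 fold change (L-RalyKO minus control) of the tested genes of each list, 1 point per gene, with filled purple points for an adjusted p under 0.05, a black line for the list median and a dashed line for the median of all genes. The axis genes are drawn as blue diamonds without a test, male-biased genes sit mostly to the right (median 0.37) and female-biased genes mostly to the left (median -0.44).

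Markers of liver cell types were compared because whole tissue was sequenced, and in such samples fewer cells of a type and less RNA per cell cannot be told apart. Hepatocyte markers summed to between 94543 and 102970 in the controls and between 104170 and 105670 in L-RalyKO, all above the controls, and their part in the results above was not tested. Of these markers, 0 of 8 had an adjusted p under 0.05 by limma and by edgeR, 2 by DESeq2 and 3 at an unadjusted p under 0.05. Over all genes tested, limma called 6.55%, edgeR 6.68% and DESeq2 9.25%, and 2632 of 11580 had an unadjusted p under 0.05 in limma. Kupffer cell markers were between 221 and 315 and between 219 and 283 (0 of 10 called). Endothelial markers were between 236 and 242 and between 203 and 256, and stellate cell markers between 325 and 350 and between 308 and 376 (0 of 8 called each). For these 3 cell types and for blood markers the count was 0 by limma, edgeR and DESeq2 and also at an unadjusted p under 0.05. Of the cholangiocyte markers, 0 were called by limma and by edgeR and 1 by DESeq2, and 1 had an unadjusted p under 0.05. None of the 7 lymphocyte markers and 1 of the neutrophil markers passed the filter, so the lymphocyte list was not tested and the neutrophil list rested on 1 gene. The summed ranges of cholangiocyte, blood, lymphocyte and neutrophil markers overlapped between the groups.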

How the data were processed

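Liver RNA-seq of 3 control and 3 L-RalyKO mice was analysed, and the other 13 samples of the series (ATAC-seq and ChIP-seq) were not analysed here. Per the methods, stranded libraries were aligned with TopHat to mm9 and quantified with Cufflinks 2.0.2 and Cuffdiff. The values the authors deposited are a different signal, CPM scaled by factors equal to those of edgeR's TMM method. Divided by the value of a single read, 100% of them were whole (tolerance 0.01), which gave back the reads.

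No further scaling was applied. The test was limma 3.58.1 (R 4.3.3, prior variance following the mean level) on log2(value + 1) of 11580 genes, those of mean value 1 or more, with Benjamini-Hochberg adjustment over all of them. Fold changes on this scale understate those of low genes. The adjusted p threshold was 0.05 and intervals are at the 95% level. The smallest p of an exact permutation test with 3 mice a group is 0.1. The scripts were tested on simulated data.

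The 10 axis genes and all gene lists were chosen with earlier results of these data known. From each list, genes with an adjusted p under 0.05 and groups that do not overlap were named, at most the 5 with the largest fold change, and for Cish the 5 genes of most similar profile. A gene that met this rule is not reported here. Alternatives were edgeR 4.0.16 and DESeq2 1.42.0 on the recovered reads, limma voom, upper-quartile and total count scaling, a pseudocount of 0.1, other filters, no intensity trend, a replicate block and leaving out each mouse. Gene positions and exon lengths are from GENCODE vM1 on NCBIM37.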

Additional observations from a re-analysis of the deposited data

How the results depend on the processing

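All 160 fold changes of the axis genes under the 16 alternatives kept their sign, and 0 moved by more than 1 SD between replicates. Much of this was fixed in advance. The fits with other filters, without the intensity trend or with a replicate block give the same fold changes as the main fit. Leaving out 1 of 3 mice cannot move a fold change by as much as this SD. No stability is therefore read from these counts. Calls did change between settings. Of the axis genes, 3 passed the threshold, and 5 did with DESeq2, 2 with edgeR, 1 when all genes with at least 1 read were tested, and from 1 (without control 2 or L-RalyKO 1) to 7 (without control 3) when a mouse was left out. Cish kept its call in 15 of 16 alternatives, all but edgeR, Stat5b in 10 and Socs3 in 9. Over all genes the count was 758, it was 484 when all genes with at least 1 read were tested, and it lay between 332 and 813 when a mouse was left out.

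With all genes that had at least 1 read, 5 male-biased genes and 2 genes of the STAT5 loss list passed, where 2.81% of all genes did. Without the intensity trend, 1 gene of other signalling, 5 male-biased and 2 female-biased genes passed, where 536 of all 11580 genes did. With DESeq2, 5 of the sex-dependent regulators passed, where 9.25% of all genes did. When a mouse was left out, the share of all genes called itself lay between 2.87% (without L-RalyKO 1) and 7.02% (without control 3). In these fits the counts lay between 1 and 5 for other signalling, 0 and 1 for the IGF system and 5 and 8 for male-biased genes. They lay between 2 and 5 for female-biased genes, 1 and 4 for the regulators, 1 and 6 for STAT5 loss, and 1 and 2 for acute phase genes. The cause of these changes was not tested.

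The replicate numbers did not pair the mice, since the deviations of same-numbered mice correlated at 0.0664, -0.0238 and 0.0196. With a replicate block 704 genes and 3 axis genes passed, and 1 gene of the IGF system did. Levels per kb with the longest coding transcript were an alternative chosen after seeing the data. Of the 29 female-biased genes, 14 passed the filter on low values, and 27 were tested when all genes with at least 1 read were kept. Of these 27, 4 were called, among them Hao2 and Slc22a27, where 2.81% of all genes were.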

Other observations

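A pair of female-biased genes lay below the filter on low values, and both had an adjusted p under 0.05 in limma when all genes with at least 1 read were tested. They were chosen after their values were seen. Hao2, a peroxisomal hydroxyacid oxidase, had 34, 18 and 12 reads in control 1, 2 and 3 (1.01, 0.631 and 0.324 scaled CPM) and 1, 1 and 2 reads in L-RalyKO 1, 2 and 3. Slc22a27, a member of the organic anion transporter family, had 69, 48 and 50 reads in the controls (2.06, 1.68 and 1.35) and 6, 11 and 6 in L-RalyKO (0.175, 0.319 and 0.158). In both genes every control was above every L-RalyKO mouse.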
